A study of Mus musculus with 16 samples.

Results

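The regions described here are stretches of the mouse genome that carried a peak of histone H3 lysine 27 acetylation (H3K27ac) both in untreated macrophages and after 1 h of interferon gamma (IFNγ). The comparison is of their standing within each list. Peaks of each list were ranked by the deposited score, and the rank was written as a percentile, 0 for the lowest peak and 100 for the highest. Control and IFNγ 1 h peaks that overlapped by 1 bp or more were joined into regions, and 27401 of the 48059 regions so formed held a peak of both lists. They are 27401 of the 55218 regions found when all 4 lists of the series are merged. A rank shift is the percentile in IFNγ 1 h minus the percentile in Control, in points, and is called a rise or a fall when it reaches 20 points.

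The cells were primary bone marrow-derived macrophages (BMDMs) of C57Bl6 mice 8 to 12 weeks old, grown from marrow in medium with serum and a conditioned medium that supplies the macrophage growth factor. The Control cells were untreated and the IFNγ 1 h cells received 100 ng/mL IFNγ for 1 h. A second pair of conditions carried PJ34, an inhibitor of the PARP enzymes, at 20 µM, given alone or from 1 h before the same IFNγ treatment (IFNγ 1h+PJ34). Each condition had 2 ChIP and 2 input replicates, and the authors deposited 1 peak list per condition made from both replicates. The spread between replicates is therefore not visible, no test across replicates can be made, and every difference below is a description of lists. Intervals are exact binomial 95% intervals, cover counting error only, and treat regions as independent although neighbouring regions are not. The lists hold no read counts, so the sequencing depth is unknown.

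IFNγ binds a cell-surface receptor made of Ifngr1 and Ifngr2, whose kinases Jak1 and Jak2 carry the signal onward. Target genes are recognised through the gamma-activated sequence (GAS), with the letters TTC and GAA at its ends. The genes switched on include secondary transcription factors such as Irf1, GTPases that attack intracellular microbes, chemokines, and the antigen presentation machinery, as well as inhibitors such as Socs1 that end the signal. H3K27ac is laid down by p300 and CBP at active promoters and enhancers, and its level in a region tends to follow the activity of nearby genes. Macrophages are among the main targets of IFNγ, which raises their capacity to kill microbes and present antigen.

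Sequences at the rises are shown first for the motif tied to IFNγ signalling. GAS was searched for as TTCNNNGAA within 500 bp on either side of the IFNγ 1 h summit of each shared region, and it was found at 13 of the 15 largest rises. Its share was lower in larger sets, at 44.0% of the 200 largest rises, 43.1% of all rises and 27.3% of all shared regions. The regions printed were picked because they hold a match, and the matches lie 33 to 472 bp from the summit. These stretches of 61 bases surround the match nearest the summit at 6 of those rises and at the promoter regions of Gbp5, a GTPase, and Socs1. They are plus-strand mm10 sequence, and the capitals mark the match.

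Prmt5 promoter, chr14:54518235-54518295: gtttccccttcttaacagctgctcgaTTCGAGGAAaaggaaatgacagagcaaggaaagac
Hk2 intron, chr6:82753329-82753389: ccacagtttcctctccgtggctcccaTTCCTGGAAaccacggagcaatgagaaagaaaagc
Rmi2 intron, chr16:10844204-10844264: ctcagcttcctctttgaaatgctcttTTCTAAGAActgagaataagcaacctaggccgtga
Tnfsf4 upstream, chr1:161354298-161354358: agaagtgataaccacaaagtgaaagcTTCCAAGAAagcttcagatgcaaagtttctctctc
Rufy3 intron, chr5:88573560-88573620: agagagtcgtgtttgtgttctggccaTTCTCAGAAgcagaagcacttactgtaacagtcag
Hipk1 intron, chr3:103772141-103772201: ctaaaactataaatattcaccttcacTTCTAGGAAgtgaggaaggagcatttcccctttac
Gbp5 promoter, chr3:142496856-142496916: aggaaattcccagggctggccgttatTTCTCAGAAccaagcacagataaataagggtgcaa
Socs1 promoter, chr16:10785955-10786015: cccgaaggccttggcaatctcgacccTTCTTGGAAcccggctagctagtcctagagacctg

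Most shared regions shifted by less than 20 points, and the moves of 20 points or more were more often downward. The shift had a median of -2.31 points (-2.49 to -2.14), an SD of 18.2 and a range from -83.9 to 78.7. It was within 5 points at 35.9% of regions. In all, 2138 regions rose (7.8%) and 4335 fell (15.8%). The smallest rise counted was 20.03 points and the largest left out was 19.98. The smallest fall counted was 20.003 points and the largest left out was 19.976.

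The size of the excess of falls varied with how the percentile was taken. When the shared regions were ranked among themselves in place of the whole lists, 2976 rose and 2924 fell, so that rises were 50.4% of the moves rather than 33.0%. In that ranking the shifts balance by construction, so a near-even split is largely built in. Falls outnumbered rises under every other alternative. Rises were 29.9% of the moves with q under 0.01 and 40.9% for pairs overlapping by 50% of both peaks. The 13816 Control peaks with no IFNγ 1 h counterpart and the 6842 IFNγ 1 h peaks with no Control counterpart had low median percentiles of 19.9 and 24.3. With both lists held to the same number of highest-scoring peaks, 2389 rose and 3616 fell, so rises were 39.8% of the moves. The shift of a gene group is therefore best read against the median of all regions.

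The bounds of the scale also matter. No region above percentile 80 in Control could rise by 20 points, and none below 20 could fall by as much, so 68.6% of the regions could rise and 91.5% could fall. Regions that started below percentile 20 in Control had a median shift of 16.5 points and rose in 44.3% of cases. Those that started between 60 and 80 had a median shift of -6.05 points, rose in 1.3% and fell in 22.4%. At the low end the scores are whole numbers shared by many peaks, so percentiles step through 0.53, 3.96, 11.5 and 19.9 in Control, and a difference of a few points there is not meaningful.

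**Figure D1:**
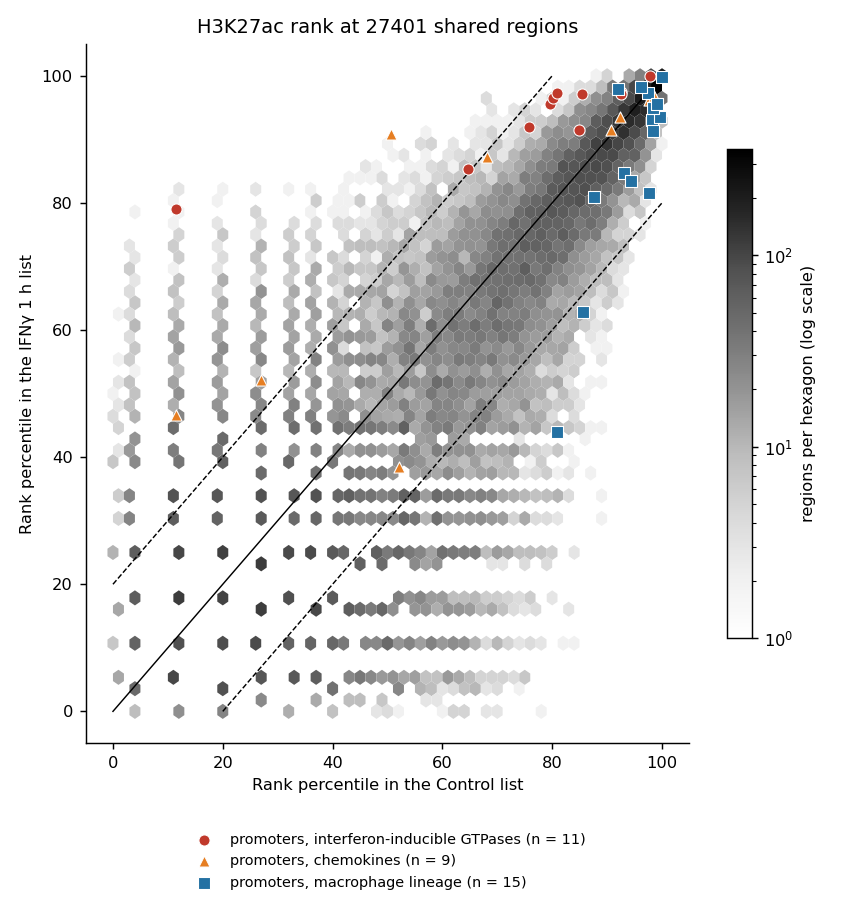
Rank percentile of 27401 shared regions in Control (x axis) and IFNγ 1 h (y axis), with darker hexagons holding more regions on a log scale, the solid line marking no shift and the dashed lines a shift of 20 points. Promoter regions of interferon-inducible GTPases (11, circles) all lie above the solid line, and 13 of the 15 of macrophage lineage genes (squares) lie below it.

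Width moved with rank. Regions were narrower in IFNγ 1 h than in Control by a median log2 ratio of -0.19 (-0.19 to -0.18), a ratio of 0.879. They were narrower in 70.4% and wider in 29.5%. Rises had a median log2 width ratio of 0.55, from 530.5 bp in Control to 840 bp in IFNγ 1 h, and 81.8% of them widened. Falls had a median log2 width ratio of -0.94, from 1014 to 467 bp, and 4.87% of them widened. Across regions the shift and the log2 width ratio had a Pearson correlation of 0.685, which is a description, since both are read from the same peaks of the same 2 lists.

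**Figure D2:**
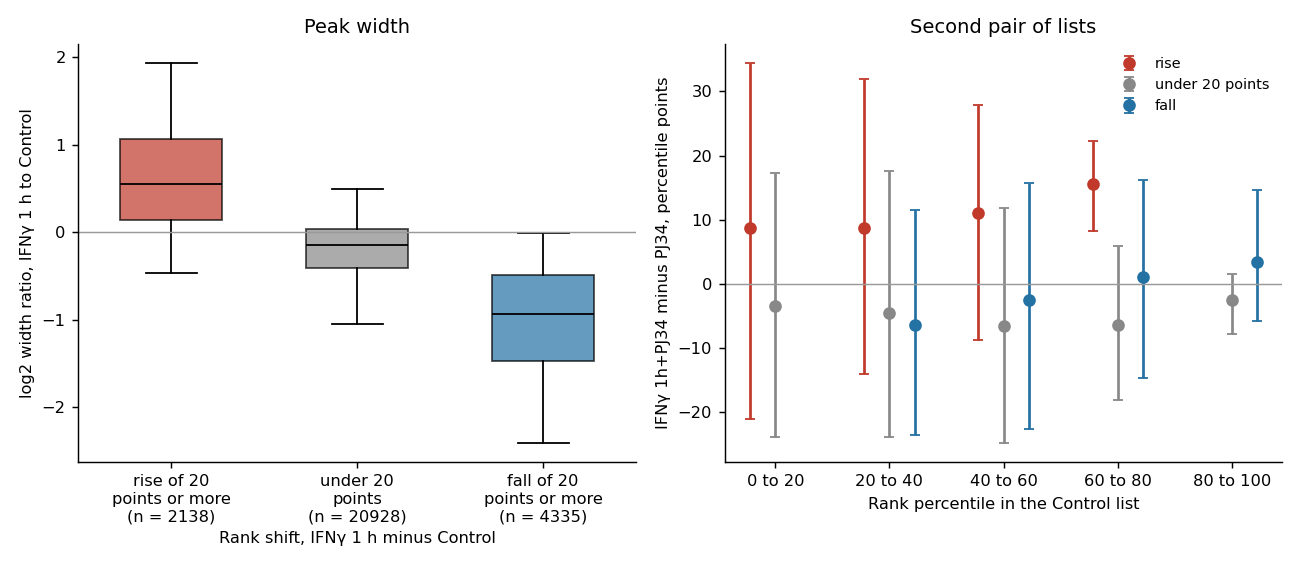
Left, log2 ratio of region width, IFNγ 1 h to Control, for rises, shifts under 20 points and falls, as boxes from the 25th to the 75th percentile with the median and whiskers from the 5th to the 95th. Right, the percentile in IFNγ 1h+PJ34 minus that in PJ34 (median, with bars from the 25th to the 75th percentile) for the same classes within bands of Control percentile, where the median of the rises is above that of the other classes in every band that holds rises.

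The moves were mostly away from promoters. A promoter summit, within 1 kb of a protein-coding start site, was found at 38.4% of shared regions but at 7.76% of rises and 17.2% of falls. Introns held 49.0% of rises and intergenic sequence 40.3%. Of the promoter-class regions, 1.58% rose and 7.07% fell, against 12.1% and 21.3% of the intronic regions. Promoter regions also ranked high from the start, with a median Control percentile of 83.5, which leaves little room to rise. The median GC content was 44.1% in rises, 46.7% in falls and 49.0% in the remainder.

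GAS matches were more frequent at rises than elsewhere. A match lay within this window at 43.1% of rises (41.0 to 45.2), 26.3% of regions that shifted by less than 20 points (25.7 to 26.9) and 24.4% of falls (23.1 to 25.7). It was present at 27.3% of all shared regions, and reads the same on both strands. The control motif GAANNNTTC, with the same letters and its ends exchanged, was present at 23.9%, 20.0% and 22.5% of the same classes. Among regions between percentiles 60 and 80 in Control, GAS was present at 54.9% of rises against 26.9% of regions with smaller shifts. Below percentile 20 the corresponding shares were 37.0% and 31.0%. The windows were centred on the IFNγ 1 h summit in every class. At falls that summit is of the lower-ranked peak, so rises and falls were not searched alike.

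AP-1 and interferon response motifs were counted on both strands. TGANTCA, the letters bound by AP-1 factors, was more frequent than GAS, at 49.3% of rises, 30.6% of regions with smaller shifts and 34.3% of falls. Among the 200 largest rises it was present at 57.5% (50.3 to 64.4) and GAS at 44.0% (37.0 to 51.2). Each motif was thus more frequent at rises than at the other classes, and GAS was absent from most rises. GAAANNGAA, a core of the interferon-stimulated response element, was present at 39.4%, 30.6% and 30.6%, and its shuffled control AAGNNAAAG at 35.3%, 28.9% and 32.0%. GAAANNGAA can share its GAA letters with a GAS match, so these counts are not independent. The lower GC content of rises moves with all of these shares, and its part was not tested.

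The largest rise was at the promoter of Prmt5, an arginine methyltransferase that methylates histones. The region at chr14:54517666-54518864 lay 0.141 kb from a Prmt5 start site. It stood at percentile 0.528 in Control and 79.2 in IFNγ 1 h. Its fold enrichment over background was 2.02 and 14.8, and its peak widened from 740 to 1199 bp. It was at 5.78 in PJ34 and 62.2 in IFNγ 1h+PJ34, so both IFNγ lists ranked it far above both lists without IFNγ.

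An intronic region of Hk2, the gene of the glycolytic enzyme hexokinase 2, moved from percentile 3.96 to 79.4 (chr6:82753273-82754494). It ranked at 54.8 in PJ34 and 78.0 in IFNγ 1h+PJ34. A region 0.844 kb from a start site of Clcn7, a lysosomal chloride transporter, moved from 3.96 to 79.0 and ranked at 32.8 and 97.3 in the PJ34 pair. Of these, Clcn7 had the larger difference in the PJ34 pair and Hk2 the smaller, since PJ34 alone already ranked the Hk2 region in the upper part of its list.

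A region in an intron of Rmi2, which encodes a subunit of a DNA repair complex and neighbours Socs1, moved from 11.5 to 85.4 (chr16:10842187-10844290). It widened from 255 to 2104 bp and ranked at 76.6 and 89.6 in PJ34 and IFNγ 1h+PJ34. Control was thus the only list of the 4 in which it ranked low. A region 41.0 kb from Tnfsf4, which encodes the OX40 ligand of T cell costimulation, moved from 3.96 to 75.7 and widened from 259 to 3155 bp. Its percentiles in the PJ34 pair were 66.1 and 76.4.

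The other named rises lay near genes of varied function. Rufy3 (11.5 to 82.5) and Hipk1, a nuclear kinase (11.5 to 81.2), stood at 15.3 in PJ34. They stood at 76.4 and 87.0 in IFNγ 1h+PJ34. Zyx, which encodes the focal adhesion protein zyxin, moved from 19.9 to 89.8 and from 54.8 to 88.7 in the PJ34 pair. The region of Steap4, a metalloreductase gene, moved from 3.96 to 73.0 but stood at 69.2 and 69.3 in the PJ34 pair, so its rank there was the same with and without IFNγ. The regions near Faiml, Ppp6r3 and Hmgn2 had no PJ34 peak and ranked at 92.8, 85.3 and 77.8 in IFNγ 1h+PJ34. Of the 15, 2 had no protein-coding start site within 50 kb.

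The peaks of the 15 largest rises are described here only for their size, since a low score in Control and a high one in IFNγ 1 h chose them. In Control they were 221 to 740 bp wide with fold enrichments of 2.02 to 3.45. In IFNγ 1 h they were 537 to 3200 bp wide with fold enrichments of 10.3 to 29.7. Only 1 was at a promoter and 8 were intergenic.

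The 15 largest falls were chosen by the opposite scores. In Control they were 1142 to 2883 bp wide with fold enrichments of 13.8 to 32.9. In IFNγ 1 h they were 198 to 625 bp wide with fold enrichments of 1.88 to 3.15. GAS was present near the IFNγ 1 h summit of 2 of them. The largest, in an intron of Fgd4, a gene of an activator of the cytoskeletal GTPase Cdc42, fell from percentile 88.5 to 4.54 (chr16:16553032-16554553). It stood at 0.855 in PJ34 and 74.9 in IFNγ 1h+PJ34, so the IFNγ list was the lower one without PJ34 and the higher one with it.

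The genes nearest the other large falls had varied functions. The promoter region of Apoe, the apolipoprotein that macrophages secrete to carry cholesterol, fell from 78.1 to 4.54 (chr7:19697879-19699805). Its fold enrichment was 18.3 in Control and 3.01 in IFNγ 1 h, and its width 1927 and 253 bp. In the PJ34 pair it stood at 54.8 and 58.4, which are close to each other. A region in Vsir, which encodes the immune checkpoint VISTA, fell from 84.4 to 4.54 and stood at 48.6 and 79.2. Regions near Cd72 and Cd300a, inhibitory receptor genes, fell from 77.8 to 0.722 and from 84.6 to 10.4. They stood at 60.9 and 56.4, and at 77.6 and 65.6, in the PJ34 pair. A region near Hpgds, the hematopoietic prostaglandin D synthase, fell from 76.1 to 0.722 and stood at 58.9 and 72.5.

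Other named falls were near Tbc1d22a, Ddx47, Paqr7 and Dkk2, with shifts from -76.8 to -74.5 points, and 4 of the 15 had no start site within 50 kb. In the plot of the largest moves, IFNγ 1h+PJ34 ranked above PJ34 at the rises and on either side of it at the falls.

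**Figure D3:**
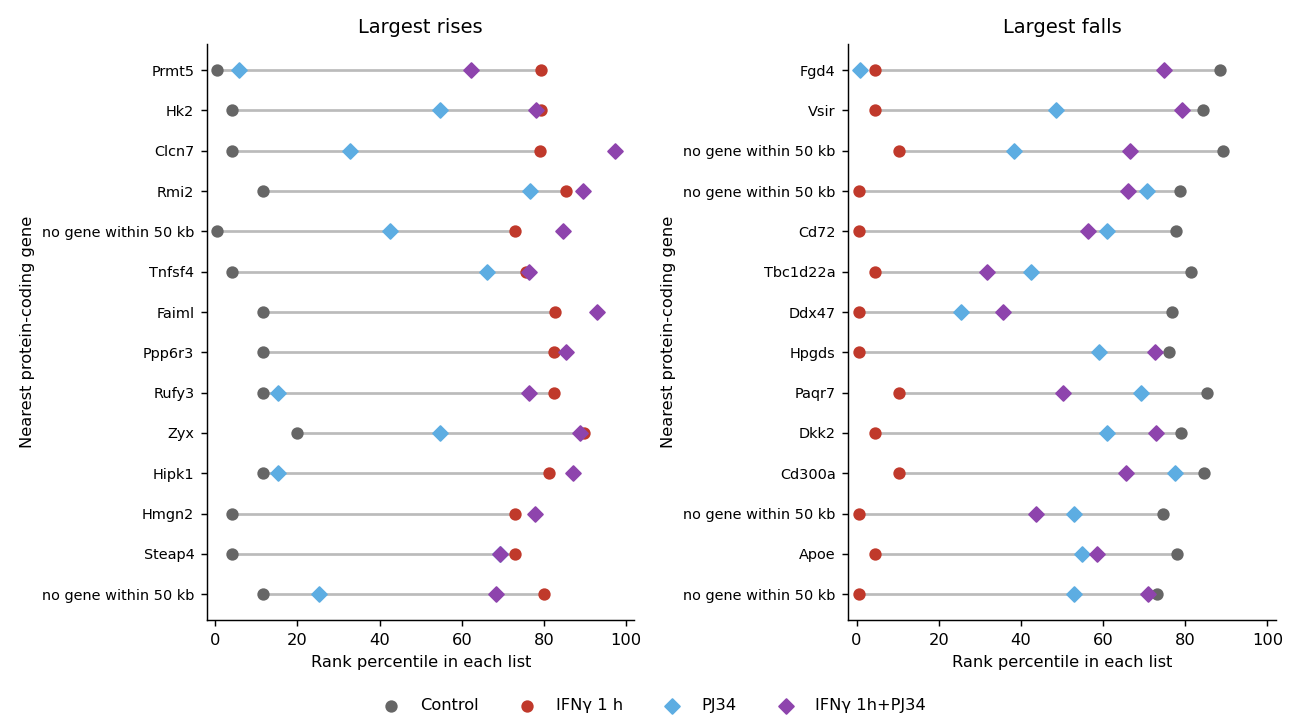
Rank percentile of 14 of the 15 largest rises (left) and 14 of the 15 largest falls (right) in Control and IFNγ 1 h (circles, joined by a line) and in PJ34 and IFNγ 1h+PJ34 (diamonds; no diamond where the list had no peak), labelled by the nearest protein-coding gene. At the rises IFNγ 1h+PJ34 is above PJ34 at all 11 plotted regions with both, and at the falls it is above at 8 of 14.

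The PJ34 pair offers a readout of IFNγ that uses none of the lists that chose these regions. IFNγ 1h+PJ34 minus PJ34 had a median of -3.03 points over the 22502 shared regions present in all 4 lists. IFNγ 1h+PJ34 ranked higher than PJ34 at 39.6% of these regions. Of the 200 largest rises, 136 had a peak in both lists of the PJ34 pair, and 105 of these (77.2%, 69.2 to 84.0) ranked higher in IFNγ 1h+PJ34, with a median of 24.8 points (17.7 to 29.5). Their median percentile was 11.5 in Control, 68.5 in IFNγ 1 h, 46.0 in PJ34 and 68.4 in IFNγ 1h+PJ34. The rises thus went the same way in the second pair more often than other regions did, although PJ34 alone ranked them well above Control.

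The 200 largest falls did not. Of the 175 present in both lists of the PJ34 pair, 59 ranked lower in IFNγ 1h+PJ34 and 116 ranked higher (66.3%, 58.8 to 73.2), with a median of 8.18 points (6.22 to 12.7). Their median percentile was 70.2 in Control, 4.54 in IFNγ 1 h, 48.6 in PJ34 and 56.4 in IFNγ 1h+PJ34. The Control and IFNγ 1 h values chose these regions, and the medians of the other lists lay between them.

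Over all calls, rises again ranked higher in the second pair more often than other regions, while falls were evenly divided. Of 1305 rises in all 4 lists, 62.5% ranked higher in IFNγ 1h+PJ34 than in PJ34 (59.8 to 65.1), and 486 rose there by 20 points or more. Regions that rose in both pairs were 2.16% of the 22502, while 11.6% rose in the PJ34 pair. Of 3305 falls, 50.5% ranked higher (48.8 to 52.2), and 685 (20.7%) fell by 20 points or more in the PJ34 pair as well. Regions that fell in both pairs were 3.04% of the 22502, while 16.9% of all fell in the PJ34 pair. The median of the falls in the PJ34 pair ran from -6.37 points for Control percentiles of 20 to 40 to 3.35 points above 80. Within every band of Control percentile that held rises, the median of the rises in the PJ34 pair was positive, from 8.65 to 15.5 points, and that of regions with smaller shifts was negative. Over all 22502 regions the shifts of the 2 pairs had a Pearson correlation of 0.03 as a description, so the pairs resembled each other at the rises and little elsewhere.

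The spread of shifts was similar for PJ34 without IFNγ. At the 25862 shared regions with a PJ34 peak, the SD of the shift was 16.3 points for PJ34 minus Control and 17.8 points for IFNγ 1 h minus Control. These comparisons share the Control list. How much of either spread would be found between replicates of 1 condition cannot be read from the lists.

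The 486 regions that rose in both pairs held GAS at 50.6% (46.1 to 55.1) and the control motif at 24.5%. Their median percentile was 32.5 in Control, 68.0 in IFNγ 1 h, 38.2 in PJ34 and 79.7 in IFNγ 1h+PJ34. They widened by a median log2 ratio of 0.69 from Control to IFNγ 1 h, and 5.97% had a promoter summit. The 685 that fell in both pairs held GAS at 21.3% (18.3 to 24.6) and the control motif at 22.6%. The regions that rose in both pairs thus had the highest share of GAS of these classes.

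Genes of the interferon response were described by 8 lists that together name 107 genes, of which 104 matched the annotation, Gbp11, Cxcl11 and Mx2 being the exceptions. A rising region lay within 50 kb of a start site of 51 of the 104, against 11.2% of all 21840 protein-coding genes. A falling region lay within 50 kb of 40, against 24.9% of all genes. Response genes lie in regions rich in peaks, with a median of 6 shared regions within 50 kb against 3 for all genes with any. Among genes with a shared region, 50.0% of response genes and 16.2% of all genes had a rise, and 39.2% and 35.99% had a fall. Counted by region, which sets aside that density, 53 of the 480 regions near response genes rose (11.0%, 8.38 to 14.2), against 6.91% of regions near any gene. A fall was found at 52 of them (10.8%, 8.20 to 14.0), against 14.8%. The 51 genes thus rest on 53 regions, and neighbouring genes share them. Shares of all genes set beside single lists below are over the 21840 genes, of which 15131 had a shared region. They do not account for the density of peaks.

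GAS was present at 15 of the 53 rises near response genes (28.3%, 16.8 to 42.3), a share close to that of all shared regions. Of the 32 with peaks in both lists of the PJ34 pair, 23 ranked higher in IFNγ 1h+PJ34 than in PJ34. The higher GAS share of rises was thus not seen in the rises next to the response genes, at this number of regions.

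Promoter regions of response genes gave a clearer picture. A promoter region here is a shared region within 1 kb of a start site, read by its highest peak in each list. For a listed gene with several such regions, only the one ranked highest in IFNγ 1 h was kept. The background of all promoter regions kept every one. The list values therefore lean towards higher IFNγ 1 h ranks beside that background, by an amount that was not measured. Among all 11003 promoter regions, 36.1% ranked higher in IFNγ 1 h than in Control, with a median shift of -1.68 points. In the PJ34 pair 27.3% of 10585 ranked higher, with a median of -4.42 points. Of the 89 promoter regions of response genes, 65 ranked higher in IFNγ 1 h (median 1.73 points) and 69 of 85 did in the PJ34 pair (median 4.68 points).

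The interferon-inducible GTPases, which coat and disrupt vacuoles that hold microbes, ranked higher throughout. All 11 of their promoter regions ranked higher in IFNγ 1 h, with shifts from 2.12 to 67.5 points and a median of 16.0. All 10 present in the PJ34 pair ranked higher there too, with a median of 12.9 points. All 11 were also higher when ranked by fold enrichment (median 11.8) and among shared regions alone (median 25.6). Both rankings read the same 2 lists and keep the same rule for choosing regions, so they add no separate support. The members of the list were chosen with earlier results of these data known. PJ34 minus Control had a median of 1.05 points at these promoters. The median width ratio was 0.25 on the log2 scale, while that of all promoter regions was -0.15.

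The promoter region of Iigp1, a GTPase of the IRG family, rose from percentile 11.5 to 79.0, had no peak in PJ34, and stood at 79.2 in IFNγ 1h+PJ34. Gbp6 rose from 64.6 to 85.4. Gbp7 moved from 80.8 to 97.3 and Gbp5 from 80.2 to 96.5, with fold enrichments of 20.0 and 42.7, and of 17.9 and 48.2. The Gbp7 and Gbp5 regions started just above percentile 80, where no rise can be called. A second region at the Gbp5 start site, left out by the rule of 1 region per gene, did rise. It moved from 58.9 to 84.5, and from 50.8 to 92.0 in the PJ34 pair. Within 50 kb, 8 of its 17 matched genes had a rise and 2 had a fall, against 11.2% and 24.9% of all genes. A rise in both pairs lay near Gbp5, Gbp7 and Gbp8. The region at Gbp5 also lies within 50 kb of Gbp7, and the region counted for Gbp8 had Abcg3 as its nearest gene. Guanylate-binding protein genes are near copies of one another in clusters, and the authors' use of uniquely mapped reads leaves out reads that fit several copies.

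Chemokine genes were the response list with the most rises in both pairs. Of 12 matched genes, 7 had a rise and 5 a fall within 50 kb, against 11.2% and 24.9% of all genes. A region that rose in both pairs lay near 6, against 3.24%. The 6 lie in 2 clusters and share regions. The first is the cluster of Cxcl9 and Cxcl10, whose products attract T cells through the receptor Cxcr3. Of the 7 shared regions within 50 kb of Cxcl10, 4 rose and none fell.

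The region at chr5:92331260-92333717 moved from percentile 32.5 to 91.2, with a fold enrichment of 4.45 in Control and 32.8 in IFNγ 1 h, and from 52.9 to 92.2 in the PJ34 pair. It lies between Cxcl9 and Cxcl10, 3.18 kb from the Cxcl9 start site and next to a start site of Art3. The Cxcl10 promoter region moved from 50.7 to 90.9, and from 70.3 to 95.8 with PJ34. A region 17.7 to 22.7 kb from Cxcl10 moved from 64.6 to 93.4, and from 72.8 to 95.2 with PJ34. The 4 rises of this locus thus spread across the cluster, and 3 of them were rises in both pairs.

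The second cluster holds Ccl2, Ccl7, Ccl8 and Ccl12, which encode attractants of monocytes. The region at chr11:82086640-82089328, 12.5 kb from Ccl12, moved from 26.9 to 78.2 and from 63.8 to 89.9 in the PJ34 pair. The Ccl7 promoter region moved from 11.5 to 46.7 and from 56.3 to 79.9. Both ranked higher in PJ34 than in Control, and higher in the IFNγ list of each pair. Of the 7 shared regions within 50 kb of Ccl7, 3 rose and 2 fell. The falls, nearest Ccl2, were from 60.6 to 38.4 and from 36.8 to 10.4, and these regions stood at 76.6 and 76.4, and at 76.9 and 89.4, in the PJ34 pair. Cxcl1, a neutrophil attractant, had no rise or fall, with a promoter region at 52.1 in Control, 38.4 in IFNγ 1 h and 56.3 in PJ34 and no peak in IFNγ 1h+PJ34.

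**Figure D4:**
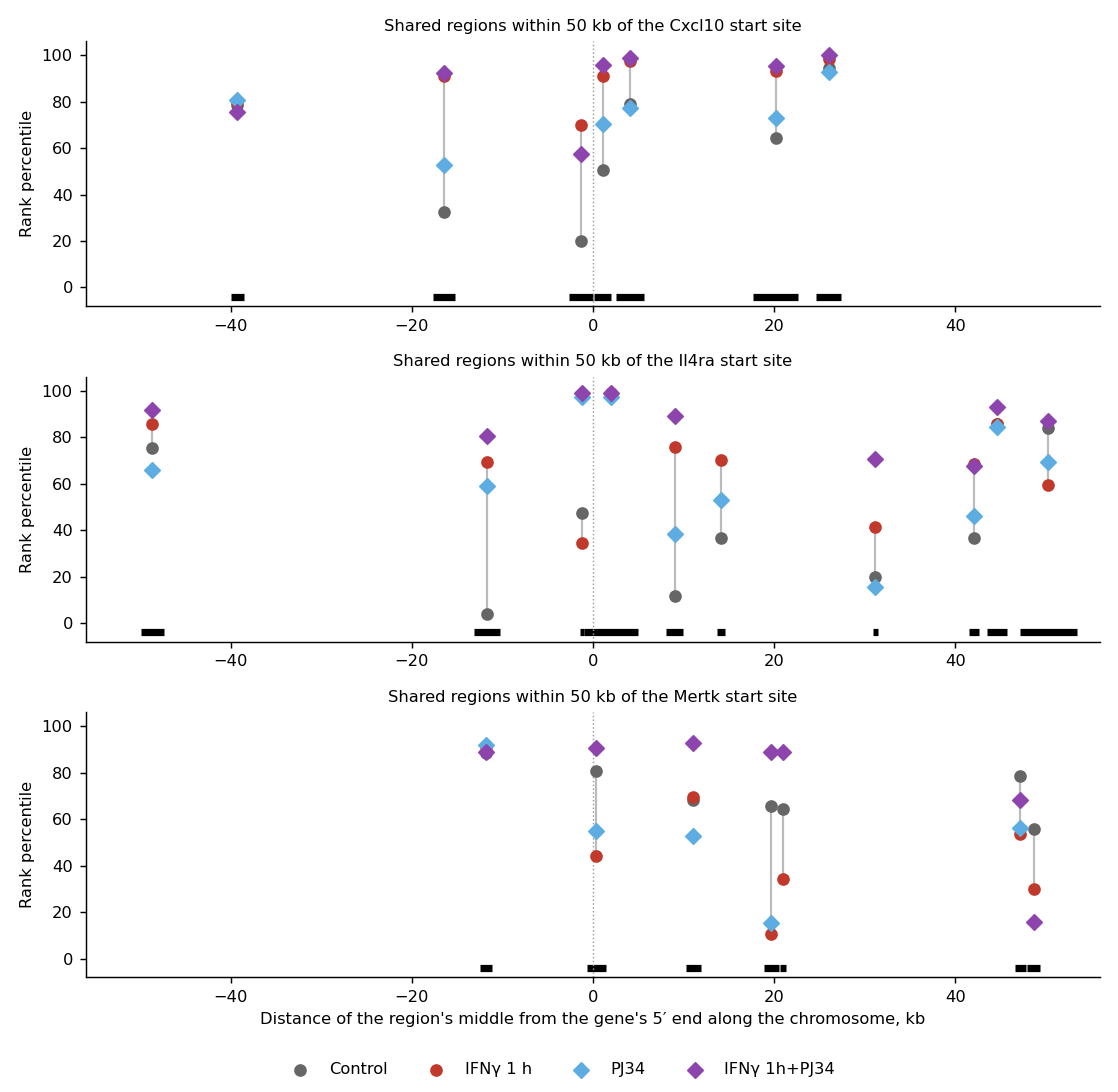
Rank percentile in the 4 lists (y axis; circles for Control and IFNγ 1 h joined by a line, diamonds for PJ34 and IFNγ 1h+PJ34) of every shared region within 50 kb of a start site of Cxcl10, Il4ra and Mertk, by distance from the gene's 5′ end along the chromosome in kb, with black bars for the extent of each region. At Cxcl10 4 of 7 regions rise, at Il4ra 5 of 10 rise and 1 falls, and at Mertk 5 of 7 fall.

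Il4ra, the receptor chain for interleukins 4 and 13 and a gene of the alternative activation list, was singled out after the values were seen, as were Cxcl10 and Mertk for the plot of loci. Of the 10 shared regions within 50 kb, 5 rose and 1 fell, and 4 rose in both pairs. The fall and the rises 30.9 and 41.5 kb from the Il4ra 5′ end had the neighbouring Il21r as their nearest gene. A region 10.3 kb from the Il4ra start site moved from 3.96 to 69.3 and from 58.9 to 80.5 with PJ34. A region inside the gene moved from 11.5 to 75.7 and from 38.2 to 89.4. Its promoter region was already at 98.2 in Control and 99.02 in IFNγ 1 h, so the rises were at surrounding sites. Over the alternative activation list as a whole, 3 of 13 genes had a rise and 7 a fall, against 11.2% and 24.9% of all genes.

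Antigen presentation genes had rises near 11 of 18 genes and falls near 9, against 11.2% and 24.9% of all genes. Ciita, the master regulator of MHC class II genes, had 3 rises and 3 falls within 50 kb, and its promoter region rose from 60.6 to 84.4 and moved from 66.1 to 76.1 with PJ34. The region shared by the promoters of Tap1, a peptide transporter, and Psmb9, an immunoproteasome subunit, moved from 93.6 to 99.8 and from 93.7 to 99.7. The class II genes themselves did not follow, with H2-Aa at 70.2 and 69.8, H2-Ab1 at 70.6 and 71.0 and Cd74 at 85.1 and 80.4 in Control and IFNγ 1 h. The class I gene B2m was at 99.9 and 99.8. The median promoter shift of the list was 0.43 points, with 12 higher and 5 lower.

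Antiviral interferon-stimulated genes mostly ranked slightly higher after IFNγ. Of 22 promoter regions 20 ranked higher, with a median of 2.72 points and a range from -2.57 to 14.1. All 22 ranked higher in the PJ34 pair, with a median of 5.74 points. By fold enrichment 16 of 22 were higher. Ifit1, an RNA-binding inhibitor of viral translation, moved from 79.99 to 93.4 and from 78.6 to 94.4. Trim21, an intracellular antibody receptor, moved from 86.6 to 96.6 and from 81.4 to 99.1. None of these promoters reached a rise, while 11 of the 23 matched genes had a rising region elsewhere within 50 kb and 7 a falling one, against 11.2% and 24.9% of all genes.

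Surface and adhesion genes had a rise near 7 of 10 and a fall near 3, against 11.2% and 24.9% of all genes, and a median promoter shift of 8.26 points. The promoter region of Cd274, which encodes the checkpoint ligand PD-L1, moved from percentile 89.3 to 99.96, and its fold enrichment was 27.5 and 99.4. That of Fas, the death receptor, moved from 70.2 to 90.2, just under a rise. Cd80, a costimulatory ligand, went the other way, from 79.8 to 68.5.

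The signalling genes themselves did not share a direction in the first pair. Promoter regions of the receptor and its transducers had a median shift of -1.65 points, with 3 of 7 higher. That is close to all promoter regions, with a median of -1.68 points and 36.1% higher. Ifngr2 moved from 99.9 to 93.8, with fold enrichments of 107 and 39.4, and stood at 99.4 and 99.5 in the PJ34 pair. Of the interferon regulatory factors, 2 of 8 promoter regions ranked higher, with a median of -0.80 points, among them Irf8 (90.5 to 98.0) and Irf1 (98.3 to 99.1). Among feedback inhibitors 5 of 7 ranked higher, with a median of 2.78 points. The promoter region of Cish, a SOCS family member, moved from 62.7 to 82.3, and that of Socs1 from 96.5 to 99.96. In the PJ34 pair 5 of 7 receptor and transducer, 6 of 8 regulatory factor and 5 of 7 inhibitor promoter regions ranked higher. Their medians there were 0.39, 1.04 and 3.44 points, beside 27.3% higher and -4.42 points for all promoter regions.

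Percentiles compress changes at the top of the lists, so the place of a region counted from the highest peak was also read, a description added after the data were seen. The Cd274 promoter region was at place 4644.5 in Control and 17 in IFNγ 1 h, where decimals mark ties. Socs1 moved from place 1523 to 18, Irgm1, a GTPase of the IRG family, from 936 to 11.5, and the region of Tap1 and Psmb9 from 2791 to 80. Genes outside the lists moved as far, among them Mid1 (570 to 1), Ripk1, a kinase of cell death signalling (817 to 11.5), and Trafd1 (322 to 6). In the other direction, Ifngr2 moved from place 43 to 2544 and the promoter region of Spi1, the macrophage transcription factor PU.1, from 4 to 54. The 20-point call reaches none of these moves.

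Genes of macrophage identity mostly ranked lower after IFNγ. Of 15 promoter regions of lineage genes, 13 ranked lower in IFNγ 1 h, with a median of -6.16 points, while regions above percentile 80 in Control had a median of -1.53. Of all 11003 promoter regions, 7035 ranked lower, with a median of -1.68 points. Mertk, a receptor for the uptake of dying cells, fell from 80.8 to 44.0, with fold enrichments of 21.7 and 4.1. Csf1r, the receptor of the macrophage growth factor, moved from 99.7 to 93.5, and Lyz2, which encodes lysozyme, from 97.7 to 81.6, its width going from 12301 to 4869 bp. Counted from the top of the list, Csf1r moved from place 133 to 2633.5.

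The PJ34 pair did not show this direction. The median for the same 15 promoters was 0.78 points there, with 9 higher. All promoter regions had a median of -4.42 points there, with 27.3% higher, so the lineage promoters stood above that background. Mertk stood at 54.8 in PJ34 and 90.8 in IFNγ 1h+PJ34, Csf1r at 97.2 and 99.4 and Lyz2 at 88.4 and 96.9. PJ34 minus Control had a median of -3.21 points at these promoters. The Control list was thus the highest or second highest of the 4 at each of these 3 genes, and IFNγ 1h+PJ34 ranked above PJ34 at each of them.

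Lipid genes included further falls. Of 12 promoter regions of cholesterol and lipid genes, 10 ranked lower, with a median of -1.92 points and a median log2 width ratio of -0.56. Of all 11003 promoter regions 7035 ranked lower, with medians of -1.68 points and -0.15, so the median shift of the list is close to the background. Besides Apoe, Scd2, a fatty acid desaturase, fell from 72.5 to 44.0 and from 48.6 to 9.0 in the PJ34 pair. Lpl, which encodes lipoprotein lipase, moved from 93.7 to 76.0 and stood at 83.5 in both lists of the PJ34 pair. Ranked among shared regions alone, 6 of the 12 were lower, so the direction of the list as a whole depends on the scale, while Apoe kept the largest shift of the list.

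Inflammatory genes had medians of opposite sign in the 2 pairs. Promoter regions of 11 inflammatory cytokine and enzyme genes had a median shift of 5.11 points, with 7 higher and 4 lower. All promoter regions had a median of -1.68 points, with 36.1% higher. In the PJ34 pair the median was -8.27 points, with 3 of 10 higher, beside -4.42 and 27.3% for all promoter regions. Within 50 kb, 7 of 13 genes had a rise and 7 a fall, against 11.2% and 24.9% of all genes. The difference between the pairs was not tested. Nos2, the inducible nitric oxide synthase, rose from 32.5 to 69.3 and stood at 66.1 in PJ34 and 57.4 in IFNγ 1h+PJ34. Il1a rose from 32.5 to 66.4 and stood at 46.0 and 50.2. Immediate early genes had medians of 2.28 and -8.79 points, and their first direction reversed to -0.69 when ranked by fold enrichment. Fosb moved from 67.7 to 83.8 in the first pair and from 90.4 to 35.5 in the second.

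Ribosomal protein genes, as a comparison of constitutively active promoters, had a rise near 1 of 20 genes and a fall near 9, against 11.2% and 24.9% of all genes. Their 20 promoter regions had a median shift of -0.87 points, with 9 higher, and the sign changed to 1.91 points by fold enrichment. The plot of promoter shifts by list sets these beside the response genes.

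**Figure D5:**
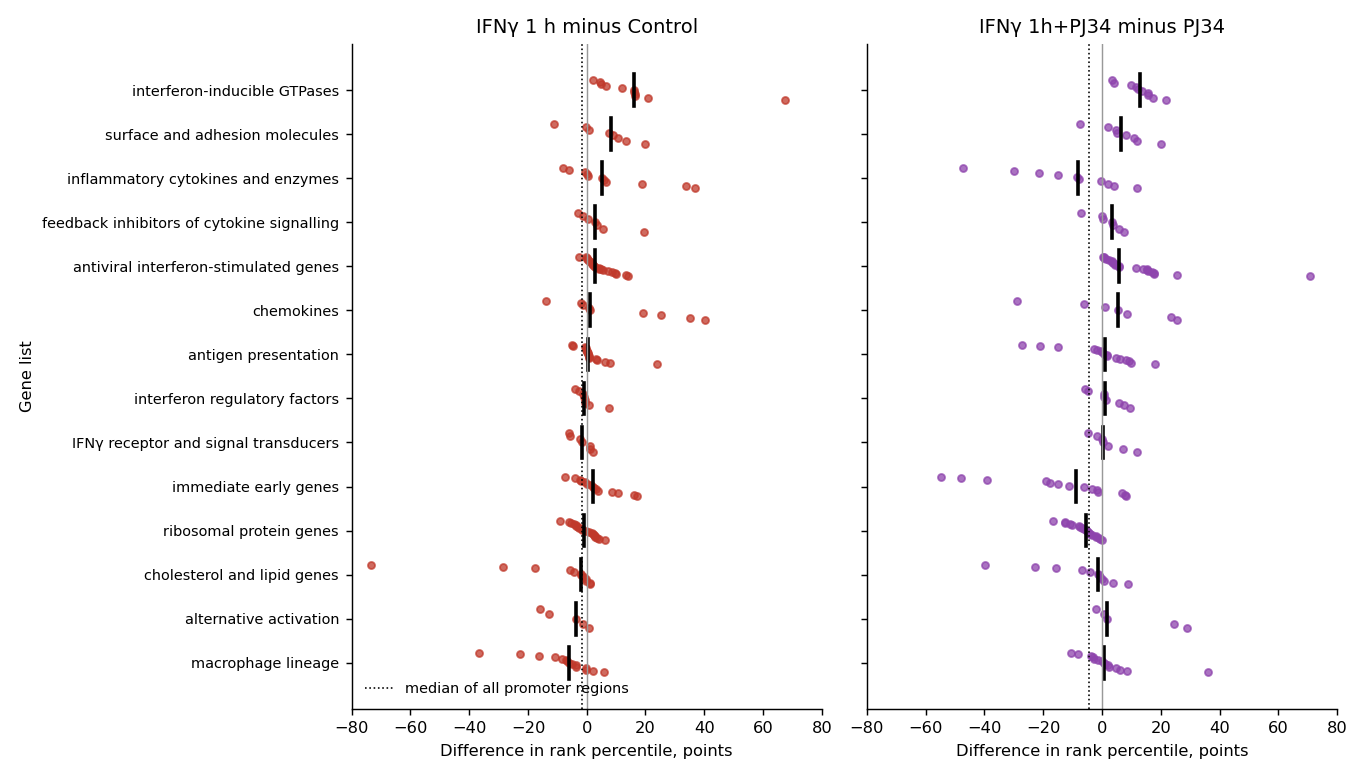
Difference in rank percentile, in points, of the promoter regions of 14 gene lists, IFNγ 1 h minus Control (left) and IFNγ 1h+PJ34 minus PJ34 (right), with a point for each region, a black bar at the list median and a dotted line at the median of all promoter regions (-1.68 and -4.42). The interferon-inducible GTPases are the list with every point above 0 in both panels, and the macrophage lineage genes have the lowest median on the left and a median near 0 on the right.

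The lists were mainly those of macrophages. All 8 macrophage markers had a peak within 1 kb of a start site in every list, and none of 5 T cell or 6 fibroblast and epithelial markers did. The B cell gene Ms4a1 and the dendritic cell genes Xcr1 and Zbtb46 had a peak in every list, and the neutrophil gene S100a8 a low one in IFNγ 1 h and PJ34 alone. The highest dendritic cell marker peak was at 79.4 in Control, 10.4 in IFNγ 1 h, 72.4 in PJ34 and 79.9 in IFNγ 1h+PJ34. Read by shared region, the median of these promoters was 49.7 in Control and 33.9 in IFNγ 1 h. All 8 macrophage marker promoters ranked lower in IFNγ 1 h than in Control (median -6.59 points), beside the values of the lineage genes above. The Ms4a1 peak was at 55.9 in Control and 10.4 in IFNγ 1 h, and the part of such cells in the shifts was not tested. Fewer cells of a type and less acetylation per cell cannot be told apart in these bulk samples. The lists held 40708 to 44090 peaks, with median fold enrichments of 5.26 to 6.32.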

How the data were processed

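H3K27ac ChIP-seq and input libraries were made from 16 samples, 8 ChIP and 8 input, of 4 conditions. The authors used Bowtie to map reads to mm10, filtered them with Samtools and Picard for quality and unique placement, and called relaxed MACS peaks (p of 0.01) in each replicate against input. The deposited list of each condition held the peaks found in both replicates. The authors deposited a score from 10 to 1000, a fold enrichment, and −log10 p-values and q-values for each peak. The score correlated with −log10 p at 1 in every list. Peak names ran to 54181 in Control and 50794 in IFNγ 1 h, while the lists held 43533 and 40708 peaks. No counts were used, so depth and replicate spread are unknown.

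Each list was ranked by score, with ties given their mean rank. Peaks were merged across lists at 1 bp of overlap, and a region took its highest peak in each list. Start sites of 21840 protein-coding genes came from GENCODE M21. Named genes were those nearest the 15 largest rises and 15 largest falls, within 50 kb, and members of gene lists, some of which are not reported here. The members and lists were chosen with earlier results of these data known. Places counted from the top, counts per region, bands of Control percentile, regions called in both pairs and list medians under other rankings were chosen after seeing the data, as were the named genes outside the rule (Mid1, Ripk1 and Trafd1). Alternatives changed the pairing, the ranking column, the list restriction, the call, the gene distance and the chromosomes. Python 3.11.15, numpy 2.4.6, pandas 2.3.3, scipy 1.17.1, pysam 0.24.0 and matplotlib 3.10.9 were used, and the code was tested on simulated lists.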

Additional observations from a re-analysis of the deposited data

Results flagged for a closer look

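At regions present in all 4 lists, 256 rose by 20 points or more from Control to IFNγ 1 h and fell by as much from PJ34 to IFNγ 1h+PJ34. In the opposite sense, 663 fell without PJ34 and rose with it. Over all 22502 regions in the 4 lists, 16.9% fell and 11.6% rose by 20 points or more from PJ34 to IFNγ 1h+PJ34. Some regions with opposite calls are therefore found whatever their shift without PJ34. The difference between the pairs was not tested, since each condition has a single list. For comparison, 486 regions rose in both pairs and 685 fell in both.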

How the results depend on the processing

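No paired analysis was possible because the lists combine the replicates of a condition, so that no result came from a test and no replicate could be left out. The main counts and medians gave 69 values under 13 alternatives, of which 50 stayed close to the value reported, 19 moved and 0 reversed. Only the medians could be labelled reversed, since a count has no sign. A count was labelled close within a fixed ratio of the main value. That took in the 2976 rises and 2924 falls among shared regions alone, beside 2138 and 4335. The promoter medians of the gene lists are not among the 69 values. Of these, immediate early genes went to -0.69 by fold enrichment, and ribosomal protein genes to 1.91 by fold enrichment and 0.29 among shared regions alone. The median shift was -1.08 points for pairs overlapping by 50% of both peaks, -0.22 when ranked among shared regions alone, -2.92 with q under 0.01 and -1.03 with the same number of peaks in both lists. Rises numbered 1297 and falls 1871 with the 50% overlap, 4248 and 7920 with a call of 10 points, and 1051 and 2239 with a call of 30 points. The median log2 width ratio was -0.24 for one-to-one pairs and -0.15 with the 50% overlap. Interferon-response genes with a rise numbered 29 with a call of 30 points and 21 within 10 kb. Those with a fall numbered 20 with the 50% overlap, 25 when ranked among shared regions alone, 18 with a call of 30 points and 13 within 10 kb. Of the 74 among the 100 largest rises with a peak in both lists of the PJ34 pair, 60 (81.1%) ranked higher in IFNγ 1h+PJ34. Stricter calls, shorter distances and the smaller set lower counts by construction, and the cause of the other moves was not tested. Without read counts, no limit from depth can be given.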
